A study of Homo sapiens with 24 samples.

Results

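Doxorubicin and alisertib therapy-induced senescent (TIS) cells were compared directly, using 3 RNA-seq libraries of SKBR3 cells treated with each drug. These 6 libraries, chosen by the treatment in their labels, were part of a series of 24, and all genes of the count table entered the comparison. SKBR3 is an established human breast cancer cell line with amplified ERBB2. Doxorubicin was given at 10 nmol/L and alisertib at 500 nmol/L, fresh drug was added at day 3, and cells were collected at day 7. Untreated proliferative SKBR3 cells at day-7 and at day-0, with 3 libraries each, were sequenced in the same series and served as the background. The labels give a refeed at day 3 for both drugs and name none for untreated cells. In comparisons with untreated day-7 cells, the drug and the refeed therefore cannot be told apart. Each drug was used at a single dose in a single cell line, so the dose and the drug cannot be told apart. The labels number the replicates and do not say whether they were separate cultures, and the p-values therefore measure the spread between these libraries.

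Doxorubicin is an anthracycline that intercalates into DNA and traps topoisomerase II on broken DNA ends. Alisertib inhibits Aurora A, the kinase that matures centrosomes and builds the bipolar spindle, and cells treated with it fail in mitosis and can become polyploid. Both drugs can leave cells in senescence, a lasting arrest with a secretory program called the senescence-associated secretory phenotype (SASP), which draws on NF-kB and on interferon signalling set off by DNA in the cytosol.

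The 6 libraries held 30672820 to 43705589 counts assigned to genes, and the deposited table listed 14493 genes, of which 13923 passed the filter on low counts and were tested. Levels are given as CPM, the read count scaled to a common library size with TMM factors, always in the order of replicates 1, 2 and 3. The test was edgeR's quasi-likelihood test, and its p-values were adjusted by Benjamini and Hochberg's method over all genes tested. Log2 fold-changes are given with their standard error, and a gene was called higher or lower at an adjusted p-value under 0.05. ERBB2 was read at 6396, 5817 and 5593 CPM in doxorubicin TIS cells and 7219.9, 6227 and 6928 CPM in alisertib TIS cells, which did not pass the test (log2 fold-change -0.19 ± 0.11, adjusted p = 0.204). Of 19 luminal and ERBB2 amplicon markers tested, 0 were higher and 5 lower in doxorubicin TIS cells, against 13.2% and 12.6% of all genes. Among the 5 were the tight junction gene CLDN3 (log2 fold-change -0.65 ± 0.10, adjusted p = 0.00102) and the luminal transcription factor SPDEF (log2 fold-change -0.59 ± 0.12, adjusted p = 0.00376). The number lower was 3 without doxorubicin replicate 3 or alisertib replicate 1 and 2 with all 24 libraries in one fit. The CLDN3 call was lost with all 24 libraries in one fit (adjusted p = 0.0517). The markers together took 1.69% to 1.90% of the counts in doxorubicin and 1.96% to 2.05% in alisertib libraries. Of the markers of other cell types, 1 fibroblast, 2 leukocyte and 2 endothelial genes were tested. DCN, PTPRC, CD14 and PECAM1 were not in the count table and were not analysed here. COL1A1, a fibroblast collagen, was lower in doxorubicin TIS cells (log2 fold-change -0.59 ± 0.12, adjusted p = 0.00458). Among the others, the macrophage receptor gene CSF1R was read at 19.8, 18.5 and 23.2 CPM in doxorubicin TIS cells and 4.48, 5.26 and 5.62 CPM in alisertib TIS cells (log2 fold-change 1.999 ± 0.14, adjusted p = 1.85e-06). The endothelial cadherin CDH5 was read at 39.1, 39.2 and 48.7 CPM in doxorubicin TIS cells and 6.61, 5.76 and 7.94 CPM in alisertib TIS cells (log2 fold-change 2.64 ± 0.13, adjusted p = 3.58e-07). CD68, a lysosomal protein of macrophages, had a log2 fold-change of 0.92 ± 0.14 (adjusted p = 0.000587). VWF did not pass the test (log2 fold-change 0.35 ± 0.29, adjusted p = 0.394). The summed level of the leukocyte markers ran from 28.8 to 33.8 CPM in doxorubicin and from 9.38 to 11.2 CPM in alisertib libraries, and that of the endothelial markers from 40.4 to 49.5 and from 6.53 to 8.82 CPM. Their part in the results below was not tested.

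The difference between both TIS states was larger than the spread between their replicates. The Euclidean distance between log2 CPM profiles averaged 62.8 ± 3.74 (SD) over the 9 pairs of a doxorubicin and an alisertib library, against 38.9 within alisertib and 39.4 within doxorubicin. On a distance measured across all 24 libraries, alisertib TIS cells lay 57.8 from untreated day-7 cells and doxorubicin TIS cells 82.7, while the drugs lay 63.1 from each other. The first principal component of the 12 libraries held 52.3% of the variance and placed alisertib libraries (-18.1 to -9.79) between doxorubicin (-53.8 to -39.0) and untreated day-7 libraries (13.5 to 27.0). The second component, with 15.2% of the variance, put doxorubicin at 16.4 to 17.7 and alisertib at -26.7 to -11.9.

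**Figure D1:**
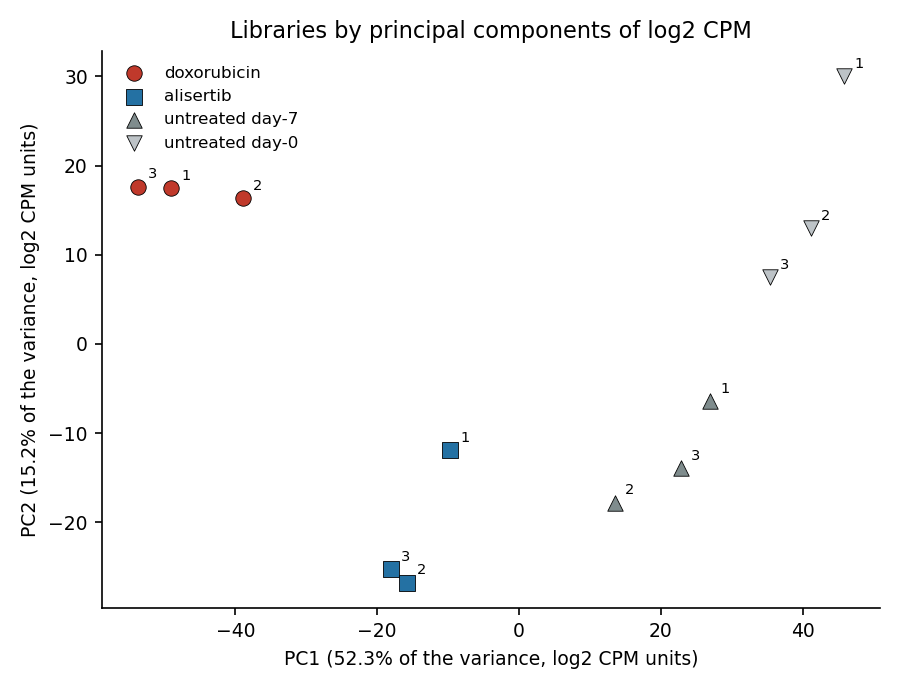
Each point is a library, numbered by its replicate, placed by the first and second principal components of log2 CPM over the 12 libraries (percent of variance on each axis). Doxorubicin libraries lie at -53.8 to -39.0 on the first component and alisertib libraries at -18.1 to -9.79, closer to the untreated cells.

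With a fold-change threshold of 2 and an unadjusted p-value below 0.05, 523 genes (3.76% of those tested) were higher and 124 (0.891%) were lower in doxorubicin than in alisertib TIS cells, and 503 and 110 of these had an adjusted p-value under 0.05. Higher genes thus made up 80.8% of those past the fold-change. With the adjusted p-value alone the directions were nearly balanced, with 1842 genes higher (13.2%) and 1754 lower (12.6%), and 2983 of the 3596 calls were under 1 on the log2 scale. A log2 fold-change of 2 or more was reached by 92 called genes upward and by 1 downward. That gene, DNAJC25-GNG10, was chosen after its values were seen, and is a readthrough transcript that shares its reads with the genes it joins, with 0.0242, 0.0296 and 0.0626 CPM in doxorubicin TIS cells and 3.22, 1.27 and 2.9 CPM in alisertib TIS cells.

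**Figure D2:**
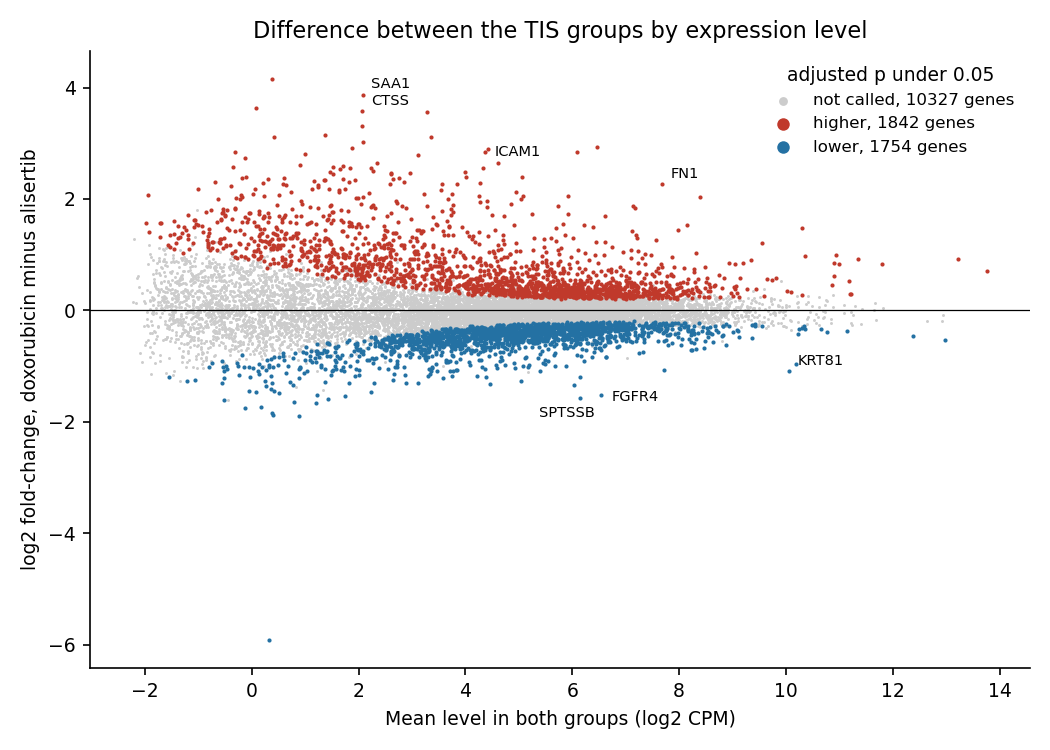
Each point is a gene, with the mean level of both TIS groups on the x axis (log2 CPM) and the log2 fold-change, doxorubicin minus alisertib, on the y axis. The 1842 red genes were called higher and the 1754 blue genes lower in doxorubicin TIS cells, and large changes are mostly upward, as for SAA1 (3.87), with SPTSSB (-1.58) the largest labelled change downward and DNAJC25-GNG10, at few counts, the lone point at the bottom.

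The genes with the largest increase in doxorubicin TIS cells, among those of at least 5 CPM whose libraries did not overlap, were SAA1, CTSS, TCHHL1, SERPINA3, MMP13, KRT17, STEAP4, GBP1, PIGR, ICAM1, OLR1 and P3H2. SAA1, an acute-phase serum amyloid protein, was read at 8.52, 6.18 and 9.05 CPM in doxorubicin TIS cells and 0.419, 0.554 and 0.619 CPM in alisertib TIS cells, a 14.7-fold difference (log2 fold-change 3.87 ± 0.24, adjusted p = 9.26e-07). CTSS, a lysosomal cysteine protease that trims the invariant chain in antigen-presenting cells, was read at 6.71, 5.86 and 10.7 CPM in doxorubicin TIS cells and 0.677, 0.47 and 0.774 CPM in alisertib TIS cells (log2 fold-change 3.58 ± 0.29, adjusted p = 5.76e-06). STEAP4, a metalloreductase of iron and copper, had 155, 132 and 181 CPM in doxorubicin TIS cells and 20.7, 21.4 and 19.1 CPM in alisertib TIS cells (log2 fold-change 2.94 ± 0.11, adjusted p = 5.55e-08). The lack of overlap in these 3 genes follows from the rule that chose them. Untreated day-7 cells had 13.4, 19.4 and 15.4 CPM of STEAP4 and 0.432, 0.767 and 0.607 CPM of CTSS, and none of the 3 genes passed the test between alisertib and untreated day-7 cells (adjusted p = 0.133, 0.839 and 0.0917). The protease MMP13, a collagenase, differed 8.63-fold (log2 fold-change 3.11 ± 0.23, adjusted p = 3.64e-06). The scavenger receptor OLR1 differed 7.18-fold (log2 fold-change 2.84 ± 0.16, adjusted p = 5.49e-07). The collagen prolyl hydroxylase P3H2 differed 6.92-fold (log2 fold-change 2.79 ± 0.25, adjusted p = 1.43e-05).

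The 12 genes with the largest decrease changed less. SPTSSB, a small subunit of serine palmitoyltransferase, the first enzyme of sphingolipid synthesis, was read at 41.7, 31.3 and 33.6 CPM in doxorubicin TIS cells and 114, 103 and 104 CPM in alisertib TIS cells, 2.99-fold lower with doxorubicin (log2 fold-change -1.58 ± 0.10, adjusted p = 1.62e-06). Untreated day-7 cells had 38.2, 40.5 and 40.1 CPM of SPTSSB, close to the doxorubicin levels, so that alisertib TIS cells were the group that stood apart (log2 fold-change 1.43 against day-7, adjusted p = 4.35e-06). FGFR4, a fibroblast growth factor receptor, had 54.3, 49.9 and 40.1 CPM in doxorubicin TIS cells and 141, 126 and 147 CPM in alisertib TIS cells (log2 fold-change -1.51 ± 0.11, adjusted p = 2.53e-06). Untreated day-7 cells had 232, 147 and 181 CPM of FGFR4, so that doxorubicin TIS cells were the low group. The bone morphogenetic protein BMP7 (log2 fold-change -1.19 ± 0.17, adjusted p = 0.000424), the catalytically inactive ephrin receptor EPHB6 (log2 fold-change -1.22 ± 0.14, adjusted p = 8.28e-05) and the atypical kinase MAPK4 (log2 fold-change -1.31 ± 0.19, adjusted p = 0.000477) were also lower. ATG16L2, LRP3, CASKIN1, SEPTIN5 and CLYBL had log2 fold-changes of -1.46 to -1.18. The remaining names were SPECC1L-ADORA2A, a readthrough transcript whose alisertib libraries spread from 43.6 to 129.5 CPM, and NSUN5P2, a pseudogene with near-identical copies, and both are uncertain because reads can be shared with other genes. The NSUN5P2 call was lost without alisertib replicate 3 (adjusted p = 0.0574), and both calls were lost with all 24 libraries in one fit (adjusted p = 0.0623 for NSUN5P2 and 0.289 for SPECC1L-ADORA2A).

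Interferon-stimulated genes were higher in doxorubicin TIS cells almost throughout the list. Of 23 tested, 20 were called higher and 0 lower, against 13.2% and 12.6% of all genes, and their median log2 fold-change was 1.12 against -0.0127 over all genes. PARP14, an ADP-ribosyltransferase induced by interferon, was read at 8.98, 9.97 and 11.8 CPM in doxorubicin TIS cells and 1.48, 2.21 and 1.88 CPM in alisertib TIS cells (log2 fold-change 2.46 ± 0.19, adjusted p = 4.26e-06). Its partners PARP9 and DTX3L, which form a ubiquitin ligase complex, differed 4.12-fold (log2 fold-change 2.04 ± 0.21, adjusted p = 3.86e-05) and 3.85-fold (log2 fold-change 1.94 ± 0.11, adjusted p = 5.49e-07). SAMD9, an antiviral restriction factor, was read at 22.3, 22 and 21.1 CPM in doxorubicin TIS cells and 5.54, 5.59 and 4.29 CPM in alisertib TIS cells (log2 fold-change 2.096 ± 0.13, adjusted p = 9.26e-07). OAS1 and OAS3 make the 2-5A messenger that activates RNase L, and OAS3 was read at 61.5, 65.9 and 61.9 CPM in doxorubicin TIS cells and 27.2, 25.5 and 25.3 CPM in alisertib TIS cells (log2 fold-change 1.28 ± 0.08, adjusted p = 9.26e-07), with 15.2, 16.5 and 15.9 CPM in untreated day-7 cells. OAS1 had 16.4, 23.7 and 14.9 CPM in doxorubicin TIS cells and 6.22, 8.19 and 7.07 CPM in alisertib TIS cells (log2 fold-change 1.36 ± 0.18, adjusted p = 0.000209). No doxorubicin library of these genes was as low as an alisertib library, which their choice by the smallest p-values of the list favours. PARP9 and DTX3L lie on opposite strands of chromosome 3 and share their first bases (GRCh37, 122246771-122283424 and 122283185-122294050), so reads from that overlap cannot be told apart without strand. In a bulk sample, fewer cells with a program and less RNA of it per cell cannot be told apart.

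Part of this list was also higher in alisertib TIS cells than in untreated day-7 cells. Compared to untreated day-7 cells, 19 of the 23 interferon-stimulated genes were higher and 2 lower with doxorubicin (21.9% and 21.5% of 13850 genes tested), and 13 were higher and 1 lower with alisertib (9.55% and 9.49% of 13795 genes tested). Both comparisons use the same untreated libraries. The median log2 fold-change was 2 with doxorubicin and 0.813 with alisertib, and PARP14 had 4.39 and 1.94, respectively. In the alternative fits the number called higher between the drugs was 17 with all 24 libraries in one fit and 16 to 19 with a library left out.

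The promoters of these genes, taken from 250 bases before to 50 bases after each gene's start in RefSeq on GRCh38.p14, were searched on both strands for GAAANNGAA, the core of the interferon-stimulated response element. It was found for 14 of 20 interferon-stimulated genes with a promoter in the table (70.0%), for 10 of 15 MHC class I genes (66.7%), and for 943 of all 10725 genes tested with a promoter (8.79%). Among genes higher at a fold-change of 2 the share was 17.3% (62 of 359), and among genes lower 9.09% (7 of 77). The following stretches, all before the gene's start, show the matches in capitals in the 3 interferon-stimulated and 2 MHC class I genes with the smallest p-values whose match lay wholly before the start. A match is a description of the sequence, and binding was not measured. The shares of both lists cover members called or not, so they are no result about the drugs.
OAS3 (chr12:112938301-112938369, plus strand): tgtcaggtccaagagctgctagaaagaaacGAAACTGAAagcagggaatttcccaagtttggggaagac
SAMD9 (chr7:93118077-93118145, minus strand): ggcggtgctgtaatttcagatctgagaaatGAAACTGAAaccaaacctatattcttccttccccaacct
PARP14 (chr3:122680780-122680838, plus strand): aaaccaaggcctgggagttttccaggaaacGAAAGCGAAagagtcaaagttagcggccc
TAP1 (chr6:32853799-32853867, minus strand): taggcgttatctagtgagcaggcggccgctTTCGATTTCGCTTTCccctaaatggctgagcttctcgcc
TAPBP (chr6:33314079-33314128, minus strand): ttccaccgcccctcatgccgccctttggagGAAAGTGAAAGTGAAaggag

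The first match began 143, 136, 29, 133 and 20 bases before the start, in that order, and TAP1 held the motif on the opposite strand. TAP1 and TAPBP each had 2 overlapping matches, shown as 1 run of capitals, and the second match of OAS3 lay outside the stretch shown.

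Of 20 interferon receptors, kinases and transcription factors, 9 were higher and 0 lower (median 0.25), against 13.2% and 12.6% of all genes. IRF1, a transcription factor induced by interferon gamma and NF-kB, was read at 37.4, 30.7 and 34.4 CPM in doxorubicin TIS cells and 15.4, 11 and 11.6 CPM in alisertib TIS cells (log2 fold-change 1.44 ± 0.13, adjusted p = 1.71e-05). IRF7, the amplifier of type I interferon, was 1.82-fold higher (log2 fold-change 0.87 ± 0.15, adjusted p = 0.00135). IFNGR1, a chain of the interferon gamma receptor, was 1.69-fold higher (log2 fold-change 0.76 ± 0.11, adjusted p = 0.000531). Its kinase JAK1 was 1.58-fold higher (log2 fold-change 0.66 ± 0.07, adjusted p = 5.81e-05). IRF9 differed less between the drugs (log2 fold-change 0.47 ± 0.09, adjusted p = 0.00386) while it was above untreated day-7 cells in both, by 2.04 with doxorubicin and 1.57 with alisertib on the log2 scale. Among cytosolic nucleic acid sensors, 7 of 12 were higher and 0 lower, against the same shares of all genes. STING1, the adaptor for cytosolic DNA, had 6.9, 5.56 and 6.29 CPM in doxorubicin TIS cells and 3.45, 2.19 and 3.25 CPM in alisertib TIS cells (log2 fold-change 1.08 ± 0.20, adjusted p = 0.00213), and the RNA sensors DDX58 (log2 fold-change 0.65 ± 0.15, adjusted p = 0.0086) and DHX58 (log2 fold-change 0.75 ± 0.21, adjusted p = 0.0196) were higher too. The call for DHX58 was lost without doxorubicin replicate 1 or 3 or alisertib replicate 2, with adjusted p up to 0.0696. The IRF9 call was lost with all 24 libraries in one fit (adjusted p = 0.11), and in that fit 3 sensors were called. Without doxorubicin replicate 1, 4 sensors were called.

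Of MHC class I antigen presentation genes, 15 of 19 were higher and 0 lower in doxorubicin TIS cells (median 0.77). Among all genes 13.2% were higher and 12.6% lower. PSMB9 and PSMB8 encode catalytic subunits of the immunoproteasome, which shapes peptides for class I molecules. PSMB9 was read at 4.45, 5.24 and 4.35 CPM in doxorubicin TIS cells and 0.58, 0.221 and 0.752 CPM in alisertib TIS cells (log2 fold-change 3.15 ± 0.32, adjusted p = 3.84e-05). PSMB8 was read at 20.3, 23.7 and 20.6 CPM in doxorubicin TIS cells and 4.7, 6.53 and 6.12 CPM in alisertib TIS cells (log2 fold-change 1.89 ± 0.14, adjusted p = 3.13e-06). TAP1, a chain of the peptide transporter, had 130.04, 99.8 and 135 CPM in doxorubicin TIS cells and 56.4, 45.9 and 54.2 CPM in alisertib TIS cells (log2 fold-change 1.22 ± 0.12, adjusted p = 2.28e-05). Its partner TAP2 was 1.7-fold higher (log2 fold-change 0.77 ± 0.11, adjusted p = 0.000413). Tapasin (TAPBP) was 1.55-fold higher (log2 fold-change 0.63 ± 0.08, adjusted p = 0.000206). The trimming peptidase ERAP1 was 1.83-fold higher (log2 fold-change 0.87 ± 0.11, adjusted p = 0.000146). In the GENCODE positions on GRCh37 the gene PSMB9 (chromosome 6, 32811913-32827628, plus strand) overlaps part of PSMB8 (32808494-32812456) and all of TAP1 (32812986-32821593), both on the minus strand. Reads from such an overlap are separate only if strand was used in counting, and the gene models used in counting may differ. Compared to untreated day-7 cells, 14 of the 19 were higher and 0 lower with doxorubicin, and 3 were higher and 1 lower with alisertib. The shares of all genes were 21.9% and 21.5% with doxorubicin and 9.55% and 9.49% with alisertib. A library left out at a time always left 15 called higher.

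Secreted factors and NF-kB targets were also higher in doxorubicin TIS cells. Of 16 SASP cytokines, chemokines and secreted regulators, 13 were higher and 0 lower (median 1.48), against 13.2% and 12.6% of all genes. ICAM1, the adhesion molecule that binds leukocyte integrins, was read at 36.2, 29.1 and 42.9 CPM in doxorubicin TIS cells and 5.09, 4.65 and 5.31 CPM in alisertib TIS cells (log2 fold-change 2.85 ± 0.14, adjusted p = 3.58e-07), and untreated day-7 cells had 4.23, 5.37 and 4.83 CPM, as low as alisertib TIS cells. CCL2, a monocyte chemokine, had 23.9, 12.9 and 21.7 CPM in doxorubicin TIS cells and 5.38, 3.18 and 3.69 CPM in alisertib TIS cells (log2 fold-change 2.27 ± 0.24, adjusted p = 4.83e-05), and the death ligand TNFSF10 (TRAIL) was 3.57-fold higher (log2 fold-change 1.84 ± 0.20, adjusted p = 7.45e-05).

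Genes of factors measured as secreted proteins in the study were looked up too. CSF1, the macrophage growth factor, was 2.09-fold higher (log2 fold-change 1.06 ± 0.11, adjusted p = 5.61e-05). IL18, a cytokine released after caspase cleavage, was read at 13.7, 11.9 and 13.2 CPM in doxorubicin TIS cells and 5.93, 6.45 and 4.78 CPM in alisertib TIS cells (log2 fold-change 1.18 ± 0.14, adjusted p = 0.000146), and untreated day-7 cells had 8.9, 9.85 and 7.86 CPM, between both drugs. CCL22 (log2 fold-change 0.26 ± 0.20, adjusted p = 0.367) and CX3CL1 (log2 fold-change 0.23 ± 0.13, adjusted p = 0.213) did not pass the test between the drugs, and both were above untreated day-7 cells with either drug, CCL22 by 1.72 with doxorubicin and 1.46 with alisertib on the log2 scale. IL6, CXCL10 and CCL20 were not analysed here, because they were not in the count table, which lists only genes with at least 1 count in every library.

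Of 20 NF-kB subunits and feedback genes, 13 were higher and 0 lower (median 0.47), against 13.2% and 12.6% of all genes. This list also holds ICAM1. BIRC3, an inhibitor of apoptosis induced by NF-kB, was read at 20.1, 17.6 and 23.6 CPM in doxorubicin TIS cells and 6.22, 6.7 and 5.84 CPM in alisertib TIS cells (log2 fold-change 1.71 ± 0.13, adjusted p = 5.32e-06). The feedback inhibitor TNFAIP3 (A20) had 19.4, 13.8 and 19.3 CPM in doxorubicin TIS cells and 7.83, 5.65 and 7.19 CPM in alisertib TIS cells (log2 fold-change 1.35 ± 0.16, adjusted p = 0.000144), and TNFAIP2 was 2.33-fold higher (log2 fold-change 1.22 ± 0.12, adjusted p = 2.92e-05). With all 24 libraries in one fit, 5 of the 20 were called. The NF-kB motif GGANTTTCC was found in 10 of 17 promoters of this list (58.8%) and in 2.28% of all promoters searched, on both strands. It was found for 3.34% of genes higher and 1.3% of genes lower at a fold-change of 2. The list share covers members called or not, so it is no result about the drugs. The stretch before the ICAM1 start is shown because it is the match with the smallest p-value, with the motif, here on the opposite strand, in capitals.
ICAM1 (chr19:10270904-10270972, plus strand): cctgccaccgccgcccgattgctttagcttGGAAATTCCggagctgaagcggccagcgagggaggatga

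Among lists of at least 10 genes, epithelial defence had the largest median (1.496), with 18 of 21 higher and 0 lower. The shares of all genes were 13.2% and 12.6%. S100A8 and S100A9 form calprotectin, a metal-binding antimicrobial protein, and S100A9 was read at 213, 247 and 201 CPM in doxorubicin TIS cells and 53.5, 70.3 and 57.4 CPM in alisertib TIS cells (log2 fold-change 1.87 ± 0.11, adjusted p = 7.52e-07). S100A8 had 18.3, 23.2 and 20.5 CPM in doxorubicin TIS cells and 5.12, 6.64 and 5.75 CPM in alisertib TIS cells (log2 fold-change 1.82 ± 0.14, adjusted p = 3.64e-06), and both were near the untreated day-7 level in alisertib TIS cells (0.03 for S100A8 and -0.25 for S100A9). PIGR, the receptor that carries IgA across epithelia, was read at 27.1, 44.4 and 42.2 CPM in doxorubicin TIS cells and 3.19, 6.23 and 5.75 CPM in alisertib TIS cells (log2 fold-change 2.89 ± 0.23, adjusted p = 5.53e-06). The mucin MUC20 had 48.7, 42.2 and 46.4 CPM in doxorubicin TIS cells and 10.6, 11.7 and 14 CPM in alisertib TIS cells (log2 fold-change 1.92 ± 0.11, adjusted p = 6.59e-07). BPIFB1, a secreted airway defence protein, had 10.3, 12.5 and 10.9 CPM in doxorubicin TIS cells and 2.51, 2.3 and 1.75 CPM in alisertib TIS cells (log2 fold-change 2.38 ± 0.17, adjusted p = 3.26e-06). PIGR and MUC20 were above the untreated day-7 cells with alisertib as well (1.92, adjusted p = 0.00681, and 2.49, adjusted p = 0.000152).

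Extracellular matrix and adhesion genes were mostly higher in doxorubicin TIS cells, with 18 of 32 called higher and 3 lower (median 0.85). Among all genes 13.2% were higher and 12.6% lower. FN1, the fibronectin gene, was read at 278, 308 and 435 CPM in doxorubicin TIS cells and 67, 64.3 and 81.1 CPM in alisertib TIS cells (log2 fold-change 2.27 ± 0.15, adjusted p = 1.8e-06). The basement membrane collagens COL4A1 (log2 fold-change 2.28 ± 0.14, adjusted p = 1.11e-06) and COL4A2 (log2 fold-change 1.99 ± 0.11, adjusted p = 5.49e-07), the laminin-332 chain LAMB3 (log2 fold-change 2.06 ± 0.17, adjusted p = 7.57e-06), the hyaluronan receptor CD44 (log2 fold-change 1.88 ± 0.15, adjusted p = 5.32e-06) and ITGA5, the alpha chain of the fibronectin receptor (log2 fold-change 1.30 ± 0.09, adjusted p = 2.73e-06), were higher too. COL4A1 had 29.9, 26.6 and 39.6 CPM in doxorubicin TIS cells and 6.54, 6.56 and 6.72 CPM in alisertib TIS cells, and untreated day-7 cells 2.66, 3.45 and 2.61 CPM, so that the order of the groups was doxorubicin, alisertib, untreated. FN1 and ITGA5 in alisertib TIS cells did not pass the test against untreated cells (adjusted p = 0.462 and 0.413).

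Of 25 actin and contractility genes, 14 were higher and 1 lower (median 0.35), against 13.2% and 12.6% of all genes. Of 17 YAP and TEAD target genes, 10 were higher and 1 lower (median 0.46), against the same shares. Compared to untreated day-7 cells, 14 of the 25 were higher and 4 lower with doxorubicin, and 3 were higher and 9 lower with alisertib. Of the 17, 7 were higher and 1 lower with doxorubicin, and 1 was higher and 4 lower with alisertib. Over all genes the shares were 21.9% and 21.5% with doxorubicin and 9.55% and 9.49% with alisertib. MYL9, a regulatory light chain of myosin, was read at 6.03, 5.74 and 4.23 CPM in doxorubicin TIS cells and 0.838, 1.36 and 0.597 CPM in alisertib TIS cells (log2 fold-change 2.54 ± 0.28, adjusted p = 7.34e-05). ACTA2, smooth muscle actin, was read at 12, 9.41 and 9.68 CPM in doxorubicin TIS cells and 2.48, 2.71 and 0.973 CPM in alisertib TIS cells (log2 fold-change 2.37 ± 0.29, adjusted p = 0.000139). The abundant filamin FLNA (log2 fold-change 0.85 ± 0.10, adjusted p = 0.000162), caldesmon CALD1 (log2 fold-change 0.84 ± 0.10, adjusted p = 8.65e-05), tropomyosin TPM1 (log2 fold-change 0.69 ± 0.09, adjusted p = 0.000178) and alpha-actinin ACTN1 (log2 fold-change 0.55 ± 0.07, adjusted p = 0.000284) showed smaller differences in the same direction. CCN2, a matricellular protein and a standard readout of YAP activity, had 29, 21.2 and 30.7 CPM in doxorubicin TIS cells and 6.35, 4.68 and 4.47 CPM in alisertib TIS cells (log2 fold-change 2.39 ± 0.17, adjusted p = 2.51e-06). Its level in untreated day-7 cells was 28.7, 5.93 and 8.47 CPM, with replicate 1 as high as doxorubicin TIS cells. CCN2 was called lower with alisertib than in untreated cells (-1.49, adjusted p = 0.0465), but these libraries overlapped. Alisertib replicate 1 (6.35 CPM) lay above untreated replicate 2 (5.93 CPM). Whether the call holds without untreated replicate 1 was not tested. TGFB2 (log2 fold-change 1.72 ± 0.14, adjusted p = 7.61e-06), NUAK2 (log2 fold-change 1.32 ± 0.14, adjusted p = 5.61e-05), CRIM1 (log2 fold-change 0.89 ± 0.11, adjusted p = 0.000157) and CCN1 (log2 fold-change 1.03 ± 0.15, adjusted p = 0.000408) were higher with doxorubicin. The TEAD motif CATTCC was found in 7 of 12 promoters of the YAP and TEAD list (58.3%) and in 14.7% of all promoters searched. It was found for 17.8% of genes higher and 15.6% of genes lower at a fold-change of 2. The list holds TEAD targets, called or not, so its share is no result about the drugs.

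Growth factor receptors and keratins split. EGFR was read at 230.3, 203 and 272 CPM in doxorubicin TIS cells and 129, 103 and 126 CPM in alisertib TIS cells (log2 fold-change 0.99 ± 0.11, adjusted p = 0.000102), and its ligand HBEGF was 2.08-fold higher (log2 fold-change 1.054 ± 0.18, adjusted p = 0.00136), whereas another ligand, AREG, was lower (log2 fold-change -0.76 ± 0.20, adjusted p = 0.0154). The AREG call was lost without doxorubicin replicate 3, alisertib replicate 2 or alisertib replicate 3 (adjusted p up to 0.067) and with all 24 libraries in one fit (adjusted p = 0.149). In all, 5 of 17 genes of the ERBB list were higher and 2 lower, against 13.2% and 12.6% of all genes. Of 14 keratins, 5 were higher and 2 lower, against the same shares of all genes, and 4 were lower without doxorubicin replicate 2. KRT17, a keratin of basal and stressed epithelium, had 9, 6.27 and 7.42 CPM in doxorubicin TIS cells and 0.354, 1.38 and 1.02 CPM in alisertib TIS cells (log2 fold-change 3.01 ± 0.32, adjusted p = 5.61e-05), and KRT16 (log2 fold-change 1.62 ± 0.21, adjusted p = 0.000206) and KRT15 (log2 fold-change 1.17 ± 0.17, adjusted p = 0.000451) were also higher. KRT81, a hair keratin, was abundant and lower, with 745, 739.7 and 555 CPM in doxorubicin TIS cells and 1443, 1514 and 1397 CPM in alisertib TIS cells (log2 fold-change -1.09 ± 0.11, adjusted p = 4.83e-05), as was KRT86 (log2 fold-change -1.02 ± 0.10, adjusted p = 4.25e-05). KRT86 (chromosome 12, 52643084-52702947, plus strand, GRCh37) spans KRT81 (52679697-52685318, minus strand). The hair keratins are close copies of each other, so KRT86 is uncertain.

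Of the drug target genes, 1 of 4 passed the test. AURKA, the kinase inhibited by alisertib, was read at 127, 127 and 114 CPM in doxorubicin TIS cells and 195, 156 and 152 CPM in alisertib TIS cells (log2 fold-change -0.44 ± 0.10, adjusted p = 0.00671), and untreated day-7 cells had 182, 157 and 168 CPM, within the alisertib range. The AURKA call was lost with all 24 libraries in one fit (adjusted p = 0.156). AURKB, the Aurora kinase of the chromosomal passenger complex, was read at 8.96, 8.49 and 10.2 CPM in doxorubicin TIS cells and 9.12, 8.5 and 10.5 CPM in alisertib TIS cells and did not pass the test (log2 fold-change -0.02 ± 0.14, adjusted p = 0.921), while both drugs lay below untreated day-7 cells (-0.83 and -0.80 on the log2 scale). TOP2A, the topoisomerase II of dividing cells, was read at 577, 549 and 637 CPM in doxorubicin TIS cells and 735, 563 and 584 CPM in alisertib TIS cells (log2 fold-change -0.09 ± 0.11, adjusted p = 0.567). TOP2B was read at 169, 167 and 183 CPM in doxorubicin TIS cells and 165, 145 and 146 CPM in alisertib TIS cells (log2 fold-change 0.19 ± 0.08, adjusted p = 0.0947), and neither passed. Of 19 genes of topoisomerases and anthracycline handling, 1 was higher and 3 lower, against 13.2% and 12.6% of all genes. The number lower was 1 without doxorubicin replicate 1 or with all 24 libraries in one fit. The one called higher was AKR1B10, an aldo-keto reductase that can reduce anthracyclines, with 5.59, 9.23 and 7.39 CPM in doxorubicin TIS cells and 1.22, 2.91 and 1.97 CPM in alisertib TIS cells (log2 fold-change 1.85 ± 0.28, adjusted p = 0.000573).

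Cell cycle genes were lower in doxorubicin TIS cells by small amounts. Of 37 DNA replication genes, 23 were lower and 0 higher (median -0.32), of 29 mitotic kinases and entry regulators 18 and 0 (median -0.31), of 39 kinetochore and spindle genes 22 and 0 (median -0.35), and of 27 Fanconi and homologous recombination genes 10 and 0 (median -0.33). Among all genes 12.6% were lower and 13.2% higher. MCM5, a subunit of the replicative helicase, was read at 73.5, 79 and 79 CPM in doxorubicin TIS cells and 112, 114 and 129.5 CPM in alisertib TIS cells (log2 fold-change -0.62 ± 0.08, adjusted p = 0.0002), and MCM6 (log2 fold-change -0.58 ± 0.09, adjusted p = 0.000729) and the GINS subunit GINS2 (log2 fold-change -0.57 ± 0.10, adjusted p = 0.00212) were lower as well. Among mitotic genes, the anaphase activator CDC20 had 81.2, 76.4 and 73.9 CPM in doxorubicin TIS cells and 125, 105 and 106 CPM in alisertib TIS cells (log2 fold-change -0.53 ± 0.08, adjusted p = 0.000909). Securin (PTTG1) had 21.9, 22.2 and 17.9 CPM in doxorubicin TIS cells and 43.3, 32.9 and 31.1 CPM in alisertib TIS cells (log2 fold-change -0.79 ± 0.13, adjusted p = 0.00127). The kinase PLK1 had 60, 58.5 and 52.3 CPM in doxorubicin TIS cells and 98.2, 76.2 and 81.7 CPM in alisertib TIS cells (log2 fold-change -0.58 ± 0.10, adjusted p = 0.00147). Survivin (BIRC5) was lower (log2 fold-change -0.59 ± 0.10, adjusted p = 0.00158). The kinetochore protein ZWINT (log2 fold-change -0.53 ± 0.08, adjusted p = 0.000544) was lower. The recombination factor XRCC3 was lower too (log2 fold-change -0.70 ± 0.10, adjusted p = 0.000412). No doxorubicin library of these genes reached the lowest alisertib library. The genes were chosen for the smallest p-values of their lists, so this gap is no separate result.

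Many of these calls were lost when more libraries shared the estimate of the spread. With all 24 libraries in one fit, in which every group shares one estimate of the spread, 0 mitotic, 0 kinetochore, 8 replication and 6 recombination genes were called lower, and GINS2 was no longer called, whereas leaving out a library at a time gave 10 to 17, 16 to 19, 15 to 23 and 4 to 11. The replication count was 15 without doxorubicin replicate 1. The mitotic count was 11 without doxorubicin replicate 1 and 10 without alisertib replicate 1. The recombination count was 6 without doxorubicin replicate 1 and 4 without alisertib replicate 3. Compared to untreated day-7 cells, 35 of 37 replication genes were lower with doxorubicin and 14 with alisertib, against 21.5% and 9.49% of all genes. Their median log2 fold-changes were -0.56 and -0.25.

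Of 20 CDK inhibitors and G1 cyclins, 4 were higher and 5 lower, against 13.2% and 12.6% of all genes. The number higher was 2 without doxorubicin replicate 3, alisertib replicate 2 or alisertib replicate 3. The number lower was 2 without doxorubicin replicate 1 and 3 without doxorubicin replicate 2 or alisertib replicate 3. With all 24 libraries in one fit, 1 was higher and 0 lower. CDKN2B, which encodes the CDK4/6 inhibitor p15, was read at 79.8, 60.4 and 89.7 CPM in doxorubicin TIS cells and 27.9, 25.7 and 29.3 CPM in alisertib TIS cells (log2 fold-change 1.47 ± 0.13, adjusted p = 9.88e-06), and untreated day-7 cells had 8.49, 10.9 and 10.9 CPM, so that the inhibitor was above untreated cells with both drugs and highest with doxorubicin. CDKN1A, which encodes p21, was read at 21.6, 20 and 18.1 CPM in doxorubicin TIS cells and 11.2, 13.4 and 9.75 CPM in alisertib TIS cells (log2 fold-change 0.80 ± 0.13, adjusted p = 0.00102), with alisertib TIS cells near untreated day-7 cells (-0.08, adjusted p = 0.781). E2F1, the activator of S phase genes, was lower (log2 fold-change -0.56 ± 0.09, adjusted p = 0.00133). With all 24 libraries in one fit the calls of CDKN1A (adjusted p = 0.0764) and E2F1 (adjusted p = 0.0573) were lost. Of 25 p53 target genes, 6 were higher and 2 lower, against 13.2% and 12.6% of all genes, and 2 were higher with all 24 libraries in one fit. The 8 genes called in the 6 libraries include NOXA (PMAIP1, log2 fold-change 0.83 ± 0.18, adjusted p = 0.00595), BTG2 (log2 fold-change 0.75 ± 0.16, adjusted p = 0.00451) and the lower CCNG1 (log2 fold-change -0.45 ± 0.08, adjusted p = 0.00243). Other markers of senescence are GLB1 and LMNB1. GLB1, the lysosomal beta-galactosidase, was read at 195, 193 and 194 CPM in doxorubicin TIS cells and 204, 179 and 203 CPM in alisertib TIS cells (log2 fold-change -0.01 ± 0.08, adjusted p = 0.964). LMNB1, the lamin lost in senescent cells, was read at 41.4, 48.4 and 45.7 CPM in doxorubicin TIS cells and 58.1, 51.9 and 59.3 CPM in alisertib TIS cells (log2 fold-change -0.32 ± 0.09, adjusted p = 0.0185). The LMNB1 call was lost without doxorubicin replicate 1, alisertib replicate 1 or alisertib replicate 3 and with all 24 libraries in one fit (adjusted p up to 0.256). Of 25 lamina and chromatin genes, 6 were lower and 0 higher, against 12.6% and 13.2% of all genes. The number lower was 3 without doxorubicin replicate 1, alisertib replicate 1 or alisertib replicate 3 and 1 with all 24 libraries in one fit.

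Histone genes were mostly higher in doxorubicin than in alisertib TIS cells. Of 17 linker, variant and polyadenylated histone genes, 9 were higher and 3 lower (median 0.31), against 13.2% and 12.6% of all genes. The number lower was 0 without doxorubicin replicate 1, doxorubicin replicate 3, alisertib replicate 1 or alisertib replicate 3 and with all 24 libraries in one fit, and 1 without alisertib replicate 2. The linker histone H1-2 was read at 109, 85.1 and 82.4 CPM in doxorubicin TIS cells and 32.7, 27.3 and 24.3 CPM in alisertib TIS cells (log2 fold-change 1.72 ± 0.13, adjusted p = 3.52e-06). H2BC21 was read at 31, 21.3 and 23 CPM in doxorubicin TIS cells and 9.47, 9.52 and 11.1 CPM in alisertib TIS cells (log2 fold-change 1.33 ± 0.14, adjusted p = 6.1e-05). H2BC5 (log2 fold-change 1.07 ± 0.11, adjusted p = 4.24e-05), H4C8 (log2 fold-change 1.39 ± 0.15, adjusted p = 7.43e-05) and H2BC12 (log2 fold-change 0.71 ± 0.08, adjusted p = 8.94e-05) were higher. Compared to untreated day-7 cells, 7 of the 17 histone genes were higher and 6 lower with doxorubicin (median 0.001). With alisertib, 2 were higher and 5 lower (median -0.19). Over all genes the shares were 21.9% and 21.5% with doxorubicin and 9.55% and 9.49% with alisertib. Histone genes have near-identical coding sequences and most of their messages lack a poly(A) tail. The labels name an mRNA kit and the methods a total RNA kit, and the part of the kit was not tested.

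Lipid synthesis genes were lower in doxorubicin TIS cells. Of 24 cholesterol synthesis and uptake genes, 15 were lower and 0 higher (median -0.29), against 12.6% and 13.2% of all genes. Of 20 fatty acid synthesis genes, 10 were lower and 0 higher (median -0.24), against the same shares. Without doxorubicin replicate 1 these counts were 9 and 4, and without alisertib replicate 3 there were 5 fatty acid synthesis genes lower. MVD, which makes isopentenyl diphosphate from mevalonate diphosphate, was read at 38, 40.7 and 33.9 CPM in doxorubicin TIS cells and 61.5, 62.5 and 68.6 CPM in alisertib TIS cells (log2 fold-change -0.77 ± 0.09, adjusted p = 9.03e-05), with 38.3, 33.5 and 35.8 CPM in untreated day-7 cells. The mevalonate kinase MVK (log2 fold-change -0.59 ± 0.08, adjusted p = 0.000286), the lanosterol synthase LSS (log2 fold-change -0.55 ± 0.08, adjusted p = 0.000489), the sterol isomerase EBP (log2 fold-change -0.60 ± 0.09, adjusted p = 0.000766) and the SREBP retention factor INSIG1 (log2 fold-change -0.42 ± 0.08, adjusted p = 0.00242) were lower. FADS2, a desaturase of polyunsaturated fatty acids, had 26.5, 33.9 and 29.5 CPM in doxorubicin TIS cells and 52.7, 59.6 and 60.7 CPM in alisertib TIS cells (log2 fold-change -0.94 ± 0.10, adjusted p = 5.61e-05). The lipogenic transcription factor MLXIPL (ChREBP) had 6.73, 6.95 and 6.76 CPM in doxorubicin TIS cells and 9.8, 15.5 and 16.8 CPM in alisertib TIS cells (log2 fold-change -1.04 ± 0.18, adjusted p = 0.00144). Malic enzyme ME1 had 225, 285 and 234 CPM in doxorubicin TIS cells and 330.4, 421 and 364 CPM in alisertib TIS cells (log2 fold-change -0.58 ± 0.11, adjusted p = 0.00266). FASN, the fatty acid synthase, named after its values were seen, was read at 5609.7, 8351 and 5692 CPM in doxorubicin TIS cells and 9297, 9719 and 9582 CPM in alisertib TIS cells (log2 fold-change -0.54 ± 0.15, adjusted p = 0.0184), and the highest doxorubicin library, replicate 2, lay below the lowest alisertib library.

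Against untreated day-7 cells 14 of the 24 cholesterol genes were higher and 0 lower with alisertib (median 0.39). With doxorubicin, 9 were higher and 4 lower (median 0.07). The shares of all genes were 9.55% and 9.49% with alisertib and 21.9% and 21.5% with doxorubicin. For fatty acid synthesis genes, 13 of 20 were higher and 0 lower with alisertib, against 9.55% and 9.49% of all genes. With doxorubicin 5 were higher and 1 lower, against 21.9% and 21.5% of all genes. SCD, the stearoyl-CoA desaturase, was 1.37-fold lower in doxorubicin than in alisertib TIS cells (log2 fold-change -0.46 ± 0.11, adjusted p = 0.0108), a call lost without doxorubicin replicate 1 or alisertib replicate 3. With all 24 libraries in one fit, 2 cholesterol and 3 fatty acid synthesis genes were called lower, and MVD, MVK, EBP, INSIG1, FADS2 and SCD were no longer called.

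**Figure D3:**
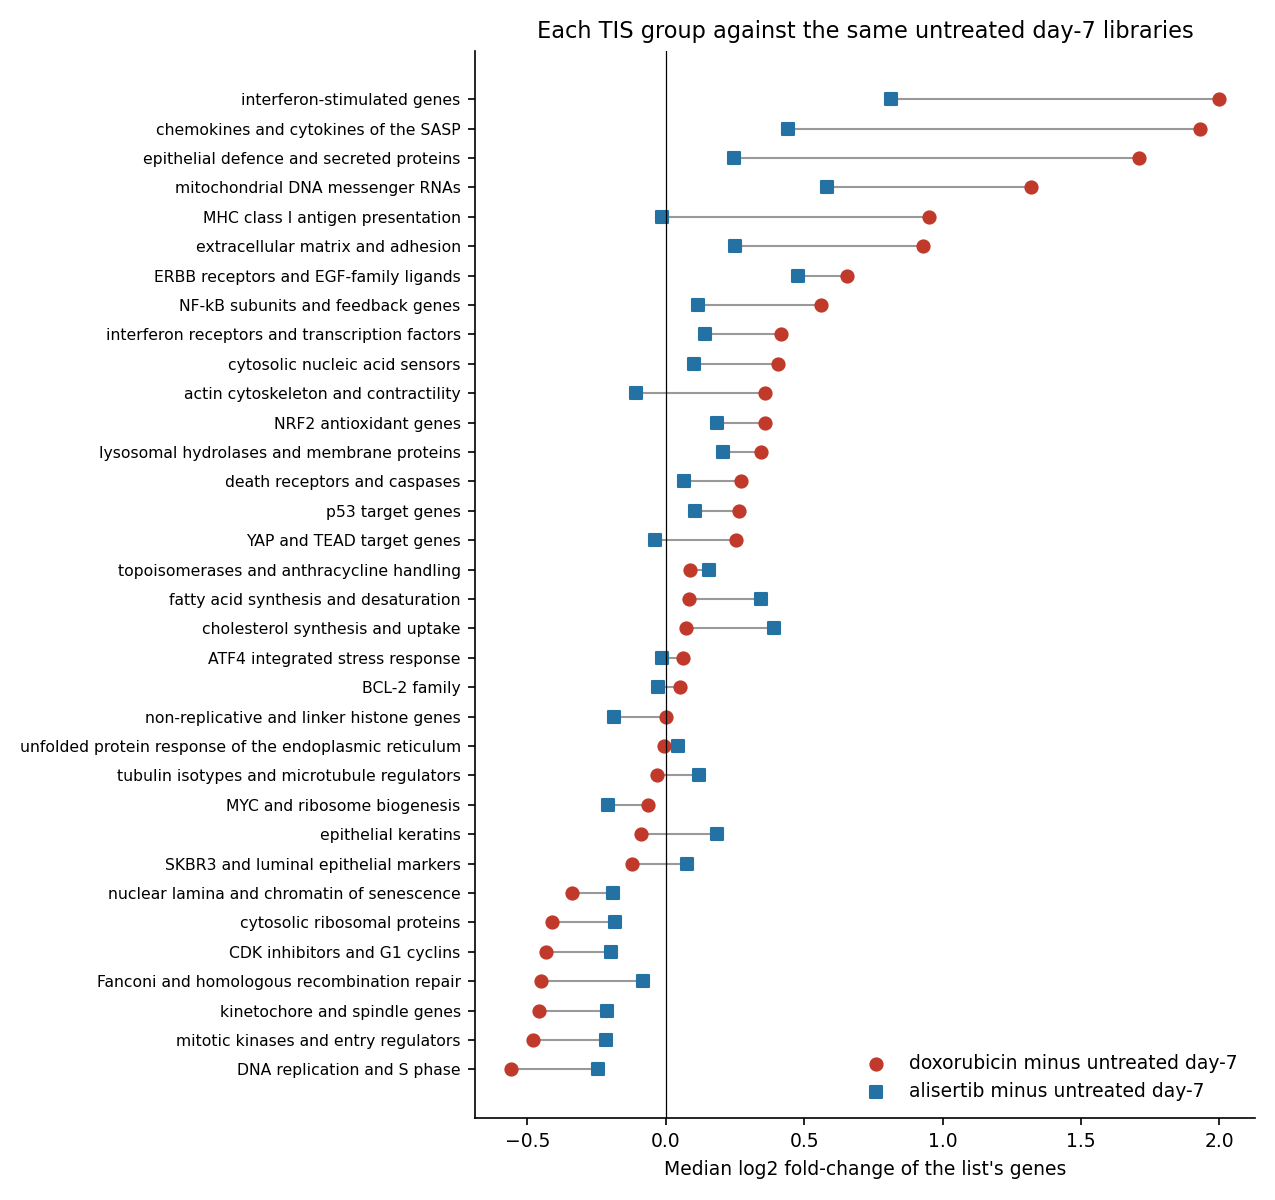
Median log2 fold-change of the genes of each list against the same 3 untreated day-7 libraries, for doxorubicin (circles) and alisertib (squares). Interferon-stimulated genes lie at 2 and 0.813, MHC class I genes at 0.95 and -0.01, and cholesterol genes at 0.07 and 0.39, respectively.

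Cell death genes changed one by one. BMF, a BH3-only protein that antagonises BCL-2 proteins, was read at 95.1, 89.2 and 108 CPM in doxorubicin TIS cells and 20.3, 26 and 24 CPM in alisertib TIS cells (log2 fold-change 2.06 ± 0.11, adjusted p = 3.58e-07), and untreated day-7 cells had 18.6, 33.3 and 28.1 CPM, around the alisertib levels. In the BCL-2 family 5 of 16 were higher and 2 lower, against 13.2% and 12.6% of all genes, so the number lower is near the share of all genes. The 2 lower were BAD (log2 fold-change -0.56 ± 0.14, adjusted p = 0.0123) and BCL2L12 (log2 fold-change -0.47 ± 0.10, adjusted p = 0.00447). The number higher was 3 without alisertib replicate 3 or with all 24 libraries in one fit. The BAD call was lost without alisertib replicate 2, and both calls, like that of ERN1 below, were lost with all 24 libraries in one fit. Of 18 death receptor and caspase genes, 8 were higher and 1 lower, against 13.2% and 12.6% of all genes. CASP4, the caspase that senses cytosolic lipopolysaccharide, was read at 15.8, 16 and 17 CPM in doxorubicin TIS cells and 5.03, 6.56 and 5.15 CPM in alisertib TIS cells (log2 fold-change 1.55 ± 0.13, adjusted p = 1.14e-05). Its pore-forming substrate GSDMD was lower (log2 fold-change -0.61 ± 0.08, adjusted p = 0.000355). Among 21 NRF2 targets, 7 were higher and 2 lower, against 13.2% and 12.6% of all genes. HMOX1, the haem oxygenase, had 219, 187 and 200 CPM in doxorubicin TIS cells and 83, 74.8 and 69 CPM in alisertib TIS cells (log2 fold-change 1.42 ± 0.09, adjusted p = 1.11e-06), above the 37.3, 35.8 and 31.4 CPM of untreated day-7 cells with both drugs. Of 23 ATF4 target genes 5 were higher and 1 lower, against 13.2% and 12.6% of all genes, among them the stress factor ATF3 (log2 fold-change 0.75 ± 0.08, adjusted p = 5.44e-05) and the cystine transporter SLC7A11 (log2 fold-change 0.81 ± 0.13, adjusted p = 0.00115). The number higher was 3 without doxorubicin replicate 1, and 2 without alisertib replicate 3 or with all 24 libraries in one fit. Of 22 unfolded protein response genes 4 were higher, including the sensor ERN1 (log2 fold-change 0.51 ± 0.08, adjusted p = 0.000874), and 3 lower, including the chaperone CRELD2 (log2 fold-change -0.63 ± 0.09, adjusted p = 0.000583). These counts are near the 13.2% and 12.6% of all genes, the number lower was 1 without alisertib replicate 3, and with all 24 libraries in one fit 0 were higher and 1 lower. Of 32 lysosomal genes 8 were higher and 1 lower, against 13.2% and 12.6% of all genes, with the cholesterol exporter NPC1 (log2 fold-change 0.57 ± 0.10, adjusted p = 0.00191) next to CTSS. The number higher was 5 without doxorubicin replicate 1 and 4 with all 24 libraries in one fit. Of 19 tubulin and microtubule genes, 1 was higher and 3 lower, against 13.2% and 12.6% of all genes, and 1 was lower without doxorubicin replicate 3 or with all 24 libraries in one fit. The one higher was the microtubule-associated protein MAP1B, with 4.26, 3.28 and 4.6 CPM in doxorubicin TIS cells and 1.32, 1.33 and 1.24 CPM in alisertib TIS cells (log2 fold-change 1.65 ± 0.21, adjusted p = 0.000206).

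Messages encoded by mitochondrial DNA were all higher with doxorubicin, 13 of 13 called (median 0.84), against 13.2% of all genes. They took 5.71%, 5.45% and 4.02% of the counts in doxorubicin and 3.82%, 2.23% and 2.80% in alisertib libraries, so that the groups did not overlap but came close. In untreated day-7 libraries the shares were 2.93%, 1.22% and 1.36%, and in untreated day-0 libraries 8.01%, 1.22% and 1.51%, with replicate 1 far above the others. ND4, a subunit of complex I, was read at 14266, 13875 and 9385 CPM in doxorubicin TIS cells and 8732, 4939 and 6148 CPM in alisertib TIS cells (log2 fold-change 0.92 ± 0.20, adjusted p = 0.00621). With a library left out, 8 to 13 of the 13 were called, the fewest without doxorubicin replicate 1, and with all 24 libraries in one fit 0 of 13 passed an adjusted p-value of 0.05. Leaving these genes out before scaling, an alternative added after the data were seen, gave 528 higher and 120 lower genes at a fold-change of 2.

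Cytosolic ribosomal protein genes had a negative log2 fold-change in 45 of 45 cases (median -0.21). Of these, 4 passed the test, against 12.6% of all genes called lower, and they include RPL10A (log2 fold-change -0.38 ± 0.09, adjusted p = 0.0117) and RPL12 (log2 fold-change -0.38 ± 0.10, adjusted p = 0.017). Without doxorubicin replicate 2 the number was 30, and without doxorubicin replicate 1 it was 0, and without each of the others it was 1 or 2. It was 0 with all 24 libraries in one fit, 25 with the replicate number as a block, and 11 with DESeq2 or with library totals alone, so that the count depended on both the libraries and the method. RPL10A was not called without doxorubicin replicate 1, and RPL12 not without doxorubicin replicate 1, doxorubicin replicate 3 or alisertib replicate 2, and neither was called with all 24 libraries. Many of these genes have processed pseudogenes that can share reads. Of 30 genes of MYC and ribosome biogenesis, 2 were higher and 1 lower, against 13.2% and 12.6% of all genes.

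Differences also followed gene properties. By the GC content of the longest annotated transcript, available for 13299 of the genes tested, the genes richest in GC (56.2% to 76.0%) had a median of -0.12 on the log2 scale, with 22.2% of genes called lower and 9.14% higher. The genes poorest in GC (29.2% to 41.8%) had a median of 0.03 with 8.54% called lower and 13.6% higher. By the length of the gene on GRCh37, known for 13430 genes, the shortest genes (up to 11566 bases) had 16.4% called lower and 9.41% higher, and the longest (from 75747 bases) 9.56% and 19.5%. On chromosome 22, 24.3% of 345 genes were called lower (median -0.11), the highest share of any chromosome, and on chromosome 19 the median was -0.07. At a fold-change of 2 the share of higher genes was 4.08% among the shortest and 4.14% among the longest genes. Whether GC content or length took part in any difference above was not tested.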

How the data were processed

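RNA was sequenced from SKBR3 cells as paired-end libraries. Per the methods and labels, HISAT2 was the authors' aligner (GRCh37), StringTie their assembler and DESeq2 their test. They deposited raw gene counts, which are whole numbers. Counting settings, including strand, are not given in the sources used here. The table lists only genes with at least 1 count in every library.

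Counts of the 6 libraries, grouped by the labels, entered edgeR 4.0.16 under R 4.3.3 (filterByExpr, TMM, glmQLFit and glmQLFTest, 2-sided, no term for the replicate number), with Benjamini-Hochberg adjustment over all genes tested. Each drug was compared with untreated day-7 cells in a fit of its own. CPM used TMM over 12 libraries, and log2 CPM a prior count of 2. The members and the 37 gene lists were chosen with earlier results of these data known, so lists are described by counts and medians, without a set test. Named genes were the 12 with the largest change in each direction (adjusted p-value under 0.05, no overlap between libraries, at least 5 CPM in the higher group), up to 6 members per list with the smallest p, drug targets, senescence markers, genes of secreted proteins the study measured, and ERBB2, unless stated otherwise. Gene positions are from the GENCODE annotation lifted to GRCh37, found for 13816 of 14493 genes, and promoter sequences from RefSeq on GRCh38.p14, found for 10725 of the genes tested. Scripts were tested on simulated data. Alternatives were RLE size factors, library totals alone, no count filter, a minimum of 10 counts per library, DESeq2 1.42.0, all 24 libraries in one fit, the replicate number as a block, the 500 most variable genes for distances, and leaving out each library, with mitochondrial DNA genes left out added after the data were seen. The authors' comparisons and their other assays were not used here. Some genes that the rule names are counted in their lists but not reported here.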

Additional observations from a re-analysis of the deposited data

How the results depend on the processing

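With all 24 libraries in one fit, 1014 genes were higher and 809 lower at an adjusted p-value under 0.05. Leaving out 1 library at a time gave 503 to 598 higher and 95 to 162 lower genes at a fold-change of 2, and 1254 to 2004 higher and 1012 to 1972 lower genes at the adjusted p-value. The lower number was 1012 without doxorubicin replicate 1, 1102 without alisertib replicate 2 and 1023 without alisertib replicate 3. The ratio of the distance between drugs to that within drugs was 1.605, 2.104 on the 500 most variable genes and 1.558 to 1.705 with a library left out. Same-numbered libraries had correlations of their deviations of 0.0261, 0.221 and 0.225, and different-numbered libraries -0.282 to 0.0981. The labels do not say that same-numbered libraries belong together, and the main fit did not pair them. Whether they shared a batch was not tested. With the replicate number as a block, 534 genes were higher and 114 lower at a fold-change of 2, and 2380 and 2497 at the adjusted p-value. Library totals alone as the scaling gave 1597 and 1992, a higher share of 44.5% against 51.2%, and DESeq2 gave 1941 and 1838. Of 228 named genes, 211 were called, 127 of them under every setting that gave a value, 37 lost the call without some library, 78 lost it with all 24 libraries, and 0 reversed. The causes were not tested.

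The effect of depth was not tested. Genes without a count in each library were not analysed here, and fold-changes of genes under 1 CPM rest on few counts. With 3 libraries against 3 an exact permutation test of a single gene cannot go below 0.1. Each drug had 1 dose, 1 time and 1 cell line.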

Other observations

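Genes higher in doxorubicin TIS cells lay close together at several places, named here after their values were seen. In 1-Mb windows on GRCh37, with at least 5 genes tested, the window with most genes past a fold-change of 2 was on chromosome 6 from 26000001 to 27000000, where 9 of 20 genes were higher, against 3.76% of all genes. It holds a histone cluster, with H1-2, H1-3, H2AC8, H2BC4, H2BC5, H3C4 and H4C8 among the 9, and BTN3A3, a butyrophilin family gene. The next window (27000001 to 28000000) added H2AC13, H2AC17, H3C10 and H4C12, and H2AC19, H2BC18 and H2BC21 were higher in the histone cluster of chromosome 1. Other windows held families: OAS1, OAS2 and OAS3 on chromosome 12, GBP1, GBP2 and GBP3, guanylate-binding proteins induced by interferon gamma, on chromosome 1 (3 of 7 genes), the apolipoproteins APOL1, APOL3 and APOL6 on chromosome 22 (3 of 10 genes), and KRT13, KRT15, KRT16 and KRT17 on chromosome 17 (4 of 14 genes). Members of such families can share reads.

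By transcript class, 7.97% of 790 long non-coding RNAs were called higher and 2.78% lower, against 14.1% and 13.8% of 12292 protein-coding genes. At a fold-change of 2 the shares were 3.92% and 1.77% for long non-coding RNAs and 3.67% and 0.765% for protein-coding genes.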
